A study of Mus musculus with 14 samples.

Results

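The genes described here are the CREB family transcription factors Creb1, Atf1, Crem, Creb3 and Creb3l2, the CREB-regulated coactivators Crtc1, Crtc2 and Crtc3, and the acetyltransferase coactivators Crebbp and Ep300. They were chosen by name, because the Tbrg4 promoter holds a cAMP response element (CRE). No measured value entered the rule, although earlier results of these data were known. All 10 were found among the 20550 genes listed for each mouse. The study fused the Wap super-enhancer, or the super-enhancer together with the Wap promoter, to the neighboring gene Tbrg4 by CRISPR/Cas9 deletion in C57BL/6 zygotes. RNA-seq was measured in 1 genotype, WT/wTbrg4 (wt/Wap-Tbrg4), in which one chromosome is wild type at the locus and the other carries Tbrg4 behind the Wap promoter and super-enhancer. Mammary glands of 2 such mice were taken on day 10 of lactation (L10). The labels name no treatment and no age. The other 12 samples are ChIP-seq libraries and are not analysed here.

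RNA-seq of wild-type mice is not analysed here, so the mutation has no contrast, and the only error is the spread between 2 mice of 1 line. A permutation over 2 mice cannot reach a p below 0.5, and no p is given. Levels are exon FPKM (fragments per kilobase of exon, scaled by the authors with a factor for each library). Because FPKM are divided by length, genes can be set side by side as far as the authors' exon lengths hold, which are not known here. Intron FPKM is the same measure over the introns and reads mostly unspliced RNA. Because the tissue was sequenced in bulk, fewer cells of a type and less RNA per cell cannot be told apart.

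CREB1, ATF1 and CREM are closely related leucine zipper proteins that bind the CRE as dimers. After protein kinase A (PKA), activated by cAMP, phosphorylates them, they recruit the acetyltransferases CBP (Crebbp) and p300 (Ep300), which acetylate histones at the promoter. The CRTC proteins bind the leucine zipper region and work without that phosphorylation. Salt-inducible kinases hold them in the cytoplasm and the phosphatase calcineurin releases them to the nucleus. CREB3 and CREB3L2 are made as membrane proteins of the endoplasmic reticulum and are cut free to enter the nucleus. CBP and p300 also serve many other factors, among them STAT5, the prolactin-activated factor that drives milk protein genes in the mammary gland.

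Promoter sequence was read from RefSeq on GRCm38.p6 (mm10) in windows from 250 bases before to 50 bases after each annotated start, and 8 of the 10 genes had a window. Crem and Crtc2 had none. The Tbrg4 window is shown because its CRE is the reason for the choice of genes. Atf1 and Creb3l2 are shown because they held the only matches to the CRE core among the 8. Creb1 and Crebbp are shown as examples of windows with neither a CRE nor its core, which Creb3, Crtc1, Crtc3 and Ep300 also lacked. Capitals mark the CRE in Tbrg4, the CRE core in Atf1 and Creb3l2, and the GC box in Creb1 and Crebbp. Each runs 5′ to 3′ on the strand of the gene. Tbrg4 lies at chr11:6626048-6626217 on the minus strand, from base -150 to base 20 around the start. Atf1 lies at chr15:100227709-100227858 on the plus strand and covers the 150 bases before the start. Creb3l2 lies at chr6:37442249-37442398 on the minus strand, from base -250 to base -101. Creb1 at chr1:64532654-64532803, on the plus strand, and Crebbp at chr16:4213405-4213554, on the minus strand, each cover the 150 bases before the start.
Tbrg4: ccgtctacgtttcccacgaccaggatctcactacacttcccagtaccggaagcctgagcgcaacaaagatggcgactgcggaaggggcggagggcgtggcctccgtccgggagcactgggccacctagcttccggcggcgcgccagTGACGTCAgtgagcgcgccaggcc
Atf1: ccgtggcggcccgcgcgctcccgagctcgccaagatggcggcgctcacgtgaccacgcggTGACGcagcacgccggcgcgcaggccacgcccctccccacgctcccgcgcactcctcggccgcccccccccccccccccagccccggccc
Creb3l2: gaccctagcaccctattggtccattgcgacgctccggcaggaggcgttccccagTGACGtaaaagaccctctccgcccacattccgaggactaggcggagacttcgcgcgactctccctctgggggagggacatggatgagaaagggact
Creb1: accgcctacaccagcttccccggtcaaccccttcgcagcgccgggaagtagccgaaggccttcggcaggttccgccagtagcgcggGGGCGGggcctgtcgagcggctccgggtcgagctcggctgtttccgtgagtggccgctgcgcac
Crebbp: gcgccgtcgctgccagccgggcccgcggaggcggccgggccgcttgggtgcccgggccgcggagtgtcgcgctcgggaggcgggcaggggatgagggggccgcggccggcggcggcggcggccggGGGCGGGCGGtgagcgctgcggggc

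The CRE of Tbrg4, the palindrome TGACGTCA, spans bases -4 to 4, so that it covers the annotated start itself. That sequence was found on either strand in 588 of 32851 RefSeq windows of the same length, a share of 1.79%. It was found in 0 of the 8 windows of CREB family and coactivator genes. The core TGACG, which every full CRE contains on both strands, was present in 20.8% of windows and in 2 of the 8 genes, at bases -90 to -86 of Atf1 and at bases -196 to -192 of Creb3l2. The paper reports CREB binding at the Tbrg4 CRE in mammary tissue, earlier in lactation than here. In mice without the motif, this binding was lost and Tbrg4 mRNA was lower. Matches in other genes are letters only and not binding sites measured here, and the absence of a match speaks only for these windows.

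The 8 promoters were all above the median in G and C content. The GC box GGGCGG, the recognition sequence of SP1, was found in 7 of the 8 (all but Crtc1), compared with 35.7% of all windows. The shares over all windows in this paragraph are not matched on G and C content, so they do not set these genes apart from other GC-rich promoters. Crtc3 had 4 matches, and the 2 matches of Crebbp overlap each other at bases -25 to -20 and -21 to -16. The windows held 54.7% (Creb3) to 82.0% (Crebbp) G and C, compared with a median of 52.7% over all windows. The number of CpG dinucleotides ran from 16 in Creb3 to 49 in Crebbp, compared with a median of 7.0, and the Crebbp window had more CpG than 99.0% of all windows. The TATA box TATAAA (13.6% of all windows), the STAT5 sequence TTCNNNGAA (8.3%) and the ETS core CCGGAA (14.9%) were found in none of the 8. The CCAAT box was found in Creb3l2 and Crtc3 and in 37.4% of all windows. The Tbrg4 window, with 64.7% G and C and 27 CpG, also held 1 GC box and 2 ETS cores, whereas the Wap window had 50.3% G and C, 3 CpG and no match to any of these motifs.

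The FPKM value of 1 read was taken from short genes, whose FPKM move in steps of single reads. In introns of 60 to 600 bp, 1 read per 1000 bp was worth 0.1 FPKM in replicate 1 and 0.199 FPKM in replicate 2. The FPKM were therefore scaled to totals of about 10000000 and 5030000 fragments, a 1.99-fold difference. These totals are not the library sizes, since the exons alone held about 12000000 reads in replicate 1 and 11200000 in replicate 2. A low FPKM is thus resolved more coarsely in replicate 2, although both libraries held similar numbers of exon reads. Read numbers below are approximate, because they use RefSeq lengths and not the gene models of the authors, and the 95% exact Poisson intervals made from them cover counting error only. The 10 most abundant genes made up 79.5% of the summed exon FPKM in replicate 1 and 90.6% in replicate 2. The milk protein genes summed to 560300 and 1509000 FPKM, and 5 of the 7 were more than 2-fold higher in replicate 2. The 4 luminal markers (Krt8, Krt18, Epcam and Elf5) summed to 496.2 and 389.0 FPKM, the 5 adipocyte markers to 634.1 and 719.5, the 4 endothelial markers to 47.5 and 42.4, and the 4 macrophage markers to 56.5 and 27.2. Of the 4 myoepithelial markers, which summed to 43.4 and 32.5, Acta2 is listed at 0 in both mice. Single markers more than 2-fold higher in replicate 1 were Krt8 (31.4 and 14.6), Krt18 (145.0 and 57.6), Krt14 (17.9 and 5.4), Plin1 (7.8 and 2.6) and C1qa (44.8 and 19.6). The T cell markers summed to 0.5 and 0.8, and the B and plasma cell markers to 107.7 and 90.0, nearly all of it Jchain. The part of these differences in the values below was not tested.

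Creb1, the factor after which the family is named, had an exon FPKM of 6.0 in replicate 1 and 7.4 in replicate 2 (6.7 ± 0.99, SD, n = 2). These values stand on about 505 and 313 exon reads, and their counting intervals, 5.49 to 6.54 and 6.6 to 8.26, did not overlap, although rounding by up to 0.05 in each value could close the gap. The gene (chr1:64532804-64604548, plus strand) was above 78.7% of all genes by mean exon FPKM. Tbrg4, whose promoter holds the CRE, was listed at 314.7 and 291.5, which is 52.4 and 39.4 times the level of Creb1. This Tbrg4 value sums the wild-type allele and the Wap-Tbrg4 allele, a hybrid gene that lost the native Tbrg4 promoter and is read from the Wap promoter, and the part of each allele was not measured here.

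Atf1, a close relative of Creb1, was lower, at 3.5 and 4.1 FPKM (3.8 ± 0.424, SD, n = 2), from about 82 and 48 exon reads. Creb1 exceeded it 1.71-fold in replicate 1 and 1.8-fold in replicate 2. Atf1 (chr15:100227859-100261248, plus strand) is uncertain, because its coding sequence has a copy of 98.4% identity on the X chromosome (chrX:53883611-53884420), and how the authors treated reads that map to several places is not stated. None of the other 9 genes had a copy aligned over at least 50% of its coding sequence at 95% identity or more.

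Crem, whose gene yields both activator and repressor isoforms, including the inducible repressor ICER, was the lowest of the 3 CRE-binding factors at 2.6 and 2.1 FPKM (2.35 ± 0.354, SD, n = 2). The isoforms were not separated in these gene-level values. Creb1 exceeded Crem 2.31-fold and 3.52-fold. Within the summed exon FPKM of the 3 factors, Creb1 made up 49.6% and 54.4%, Atf1 28.9% and 30.1%, and Crem 21.5% and 15.4%. The order Creb1, Atf1, Crem was therefore the same in both mice, with no overlap between the ranges of neighbors. In replicate 1, however, the counting intervals of Atf1 (2.8 to 4.37) and Crem (2.16 to 3.12) overlapped.

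Creb3, a membrane-bound factor of the secretory pathway, had the highest level of the 10 genes. It was listed at 31.5 FPKM in replicate 1 and 21.6 in replicate 2 (26.55 ± 7.0, SD, n = 2), above 94.7% of all genes. Its counting intervals, 28.8 to 34.4 and 18.4 to 25.1, were apart, so the difference between the mice was larger than counting error alone. Creb3 (chr4:43562658-43567061, plus strand) shares 134 bp with Gba2 on the opposite strand, which was listed at only 1.1 and 1.0 FPKM. Creb3l2 (chr6:37331021-37442148, minus strand), which acts in the expansion of secretory capacity, ranked below Crebbp at 10.3 and 8.7 FPKM (9.5 ± 1.13, SD, n = 2). Creb3 exceeded it 3.06-fold and 2.48-fold, and exceeded Creb1 5.25-fold and 2.92-fold.

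Crtc1 and Crtc3 formed the low end of the group, and Crtc2 lay at the level of Crem. Crtc2 (chr3:90253858-90264125, plus strand), known for its role in the fasting response of the liver, was listed at 2.7 and 2.6 FPKM (2.65 ± 0.0707, SD, n = 2). Crtc3 (chr7:80586632-80688877, minus strand) was listed at 1.6 and 1.0 (1.3 ± 0.424, SD, n = 2). Crtc1 (chr8:70382358-70439573, minus strand), best known from neurons, was listed at 1.4 and 0.9 (1.15 ± 0.354, SD, n = 2). Crtc2 thus led in both mice and made up 47.4% and 57.8% of the exon FPKM of the 3 genes, at 1.93 and 2.89 times Crtc1 and 1.69 and 2.6 times Crtc3. The ranges of Crtc1 and Crtc3 overlapped, and in replicate 2 both rest on only about 26 exon reads. With GENCODE in place of RefSeq lengths, which was tried after the data had been seen, the counting intervals of Crtc3 in the 2 mice were apart as well. By mean exon FPKM, Crtc1 was above 53.4% of all genes.

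Of the acetyltransferases, Crebbp was listed at 14.1 FPKM in both mice, from about 1058 and 532 exon reads, above 89.3% of all genes. Values with 1 decimal do not resolve a smaller difference, and the counting error of each is larger than that step. Ep300 was listed at 6.0 and 6.9 (6.45 ± 0.636, SD, n = 2). Crebbp therefore exceeded its paralog 2.35-fold and 2.04-fold over exons, and 1.67-fold and 1.5-fold over introns. Crebbp lies at chr16:4084048-4213404 on the minus strand and Ep300 at chr15:81586214-81652077 on the plus strand.

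**Figure D1:**
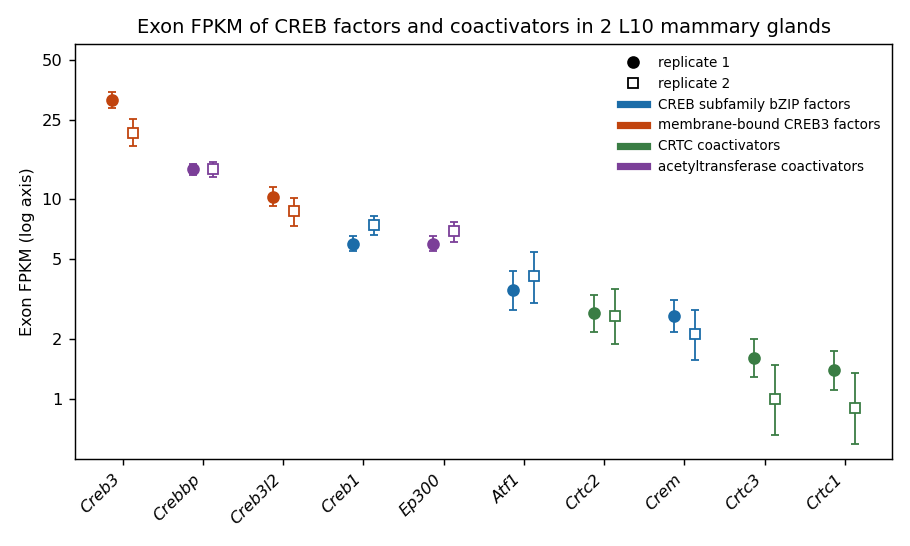
Exon FPKM (log axis) of the 10 genes in replicate 1 (filled circles) and replicate 2 (open squares), ordered by mean and colored by role, with bars for the 95% exact Poisson interval of the approximate read count. Creb3 is highest at 31.5 and 21.6 FPKM, Crtc1 is lowest at 1.4 and 0.9, and the bars of the 2 mice are apart only for Creb1 and Creb3 with RefSeq lengths.

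By mean level the order was Creb3, Crebbp, Creb3l2, Creb1, Ep300, Atf1, Crtc2, Crem, Crtc3 and Crtc1, with a 22.5-fold span in replicate 1 and a 24.0-fold span in replicate 2. Of the 45 pairs of genes, 44 had the same order in both mice. The exception was Creb1 and Ep300, which were tied at 6.0 FPKM in replicate 1. The ranges of the 2 mice were apart in 42 pairs. Neighbors that could not be separated beyond this spread were Creb1 and Ep300, Crem and Crtc2, and Crtc1 and Crtc3. Counting intervals also overlapped for Atf1 and Crtc2 in both mice, for Atf1 and Crem in replicate 1, and for Creb3l2 with Creb1 and Ep300 in replicate 2. A range of 2 values can therefore be narrower than the counting error. Both mice share the same exon lengths, so this spread does not cover error in those lengths. Exon reads with GENCODE lengths were 1.29 to 2.19 times those with RefSeq lengths, depending on the gene. The median of the 10 genes was 5.12 FPKM, compared with 5.7 over the 9845 genes whose exon FPKM averaged 1 or more (called expressed here), so the group sits near the middle of the expressed genes. All 10 genes passed that limit, which 48.0% of all listed genes did.

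Between the mice, 0 of the 10 genes differed more than 2-fold in exon FPKM + 1. Among all expressed genes 581 of 9845 did (5.90%), most of them higher in replicate 1 (4.82% of all). With 10 genes a count of 0 is close to that background. The median absolute log2 ratio was 0.218 in the 10 genes and 0.326 in all. As listed, 6 genes were higher in replicate 1, 3 in replicate 2 and 1 was equal, with log2 ratios from -0.52 in Creb3 to 0.26 in Creb1. These directions depend on the scaling. Each library was also rescaled to the same summed exon FPKM, which the milk protein genes dominate. All 10 log2 ratios were then negative (-1.54 to -0.63), and Creb1, Atf1 and Ep300 changed sign. Creb3 (-1.54) and Creb3l2 (-1.16) differed more than 2-fold after this rescaling.

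Across all expressed genes, the difference between replicates moved with exon GC content (Spearman rho -0.658 across genes, which are not independent replicates). The 10 genes lie across this slope, from 39.7% G and C in the exons of Creb1 to 59.2% in those of Crtc1. After a lowess fit on GC content was subtracted, 186 of 9725 genes (1.91%) and 0 of the 10 differed more than 2-fold. Of the genes that were higher in replicate 1 as listed, Creb3l2, Crtc1, Crtc2 and Crtc3 then had positive log2 ratios (0.06, 0.36, 0.46 and 0.15), while Creb1 went from 0.26 to -0.14 and Atf1 from 0.18 to -0.02. Creb3 at -0.32 and Crem at -0.53 stayed lower in replicate 2, as they did under each scaling tried, and Ep300 stayed higher at 0.19.

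**Figure D2:**
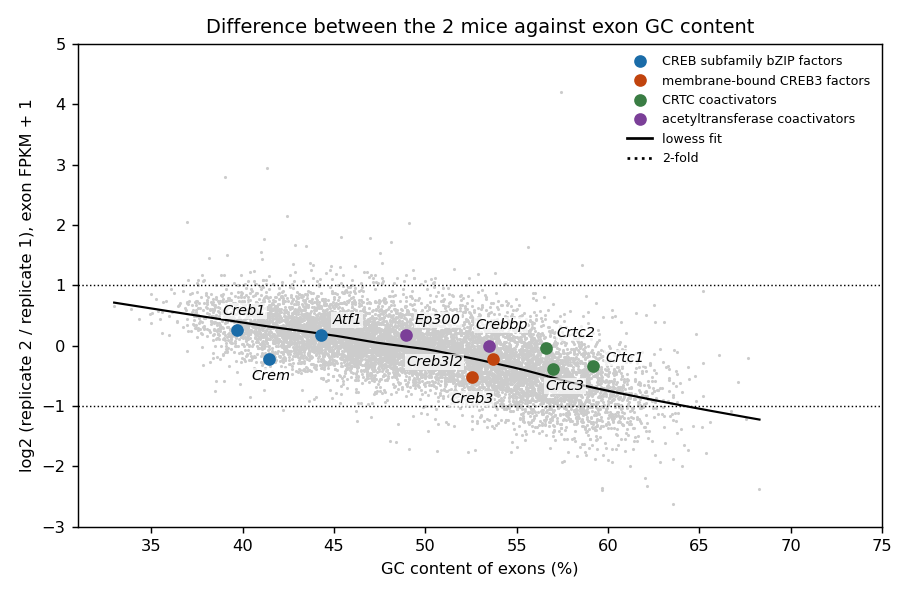
Log2 ratio of replicate 2 to replicate 1 of exon FPKM + 1 against the GC content of the exons in percent, for expressed genes (gray) and the 10 genes (colored by role), with the lowess fit (line) and the 2-fold limits (dotted). Crem (-0.22), Creb3 (-0.52), Creb1 (0.26) and, only just, Atf1 (0.18) lie below the fit, and all 10 genes lie within the limits.

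Introns of all 10 genes were read in both mice, which was the case for 50.4% of all genes. That share includes genes that are not expressed (48.0% averaged 1 FPKM or more over exons), whereas all 10 genes are. Intron levels spanned a narrower range than exon levels. Crebbp was listed at 1.0 and 0.9 FPKM, Creb3l2 at 0.9 and 0.8, Creb3 at 1.0 and 0.4, and Creb1 and Ep300 at 0.6 in both mice. Atf1 was at 0.7 and 0.5, Crtc2 at 0.4 and 0.5, Crem at 0.4 and 0.2, Crtc1 at 0.3 and 0.2, and Crtc3 at 0.3 in both. Only 31 of the 45 pairs had the same order in both mice. The values carry 1 decimal, a step that is large beside levels under 1 FPKM. Long introns nevertheless gave many reads, about 1218 and 551 for Crebbp and 970 and 433 for Creb3l2, whereas the 28 and 6 intron reads of Creb3 leave its intervals (0.654 to 1.42 and 0.154 to 0.913) overlapping. Crem (chromosome 18) was the only member whose intron intervals were apart, at 0.353 to 0.451 and 0.155 to 0.254 FPKM, a gap that rounding by up to 0.05 in each value could close.

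By the means of the 2 mice, introns relative to exons were highest in the CRTC genes and lowest in Creb3. The intron FPKM was 21.4% and 22.2% of the exon FPKM in Crtc1, 18.8% and 30.0% in Crtc3 and 14.8% and 19.2% in Crtc2. It was 20.0% and 12.2% in Atf1, 15.4% and 9.52% in Crem, and 10.0% and 8.11% in Creb1. Ep300 (10.0% and 8.7%) and Creb3l2 (8.74% and 9.2%) were near Creb1, Crebbp had 7.09% and 6.38%, and Creb3 had 3.17% and 1.85%. Set against all expressed genes, the ratio of mean intron to mean exon FPKM (both + 0.1) was higher than in 95.0% of genes for Crtc3 and 94.8% for Crtc1. The share was 88.0% for Crtc2, 84.8% for Atf1 and 81.2% for Crem, and only 12.4% for Creb3. Ep300, Creb1, Creb3l2 and Crebbp lay between, at 61.5%, 59.8%, 57.7% and 43.1%. The genes were not matched on exon level, and the added 0.1 weighs most at low levels such as those of the CRTC genes. The ratio of Crtc2 rests on only about 29 and 18 intron reads. The near-identical copy of the Atf1 coding sequence leaves its exon level uncertain, and with it the ratio and the reads per exon read of Atf1. The median log2 ratio was -2.92 in the 10 genes and -3.55 in 9724 genes, and 8 of the 10 (all but Creb3 and Crebbp) were above the latter. For 6 genes, Crtc3, Creb3l2, Atf1, Crem, Crtc1 and Crebbp, the introns held more reads than the exons in both mice, up to 3.56 and 5.7 intron reads per exon read in Crtc3. With GENCODE lengths this held for 4 of them, and not for Crebbp (1191 intron and 1909 exon reads in replicate 1) or Crtc1 (138 and 157). Ep300 also hosts the small nuclear RNA gene Gm22067 (109 bp) on its own strand. On the opposite strand, Crtc3 overlaps the long noncoding RNA genes Gm51450 (29482 bp, no FPKM listed) and Gm15880 (8368 bp, 0.0 FPKM in both mice). Crem overlaps Gm6225 (1215 bp) and Creb3l2 overlaps Gm33275 (1395 bp), also on the opposite strand. The part of these overlaps in the values was not tested, and the strand setting of the counts is not known.

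**Figure D3:**
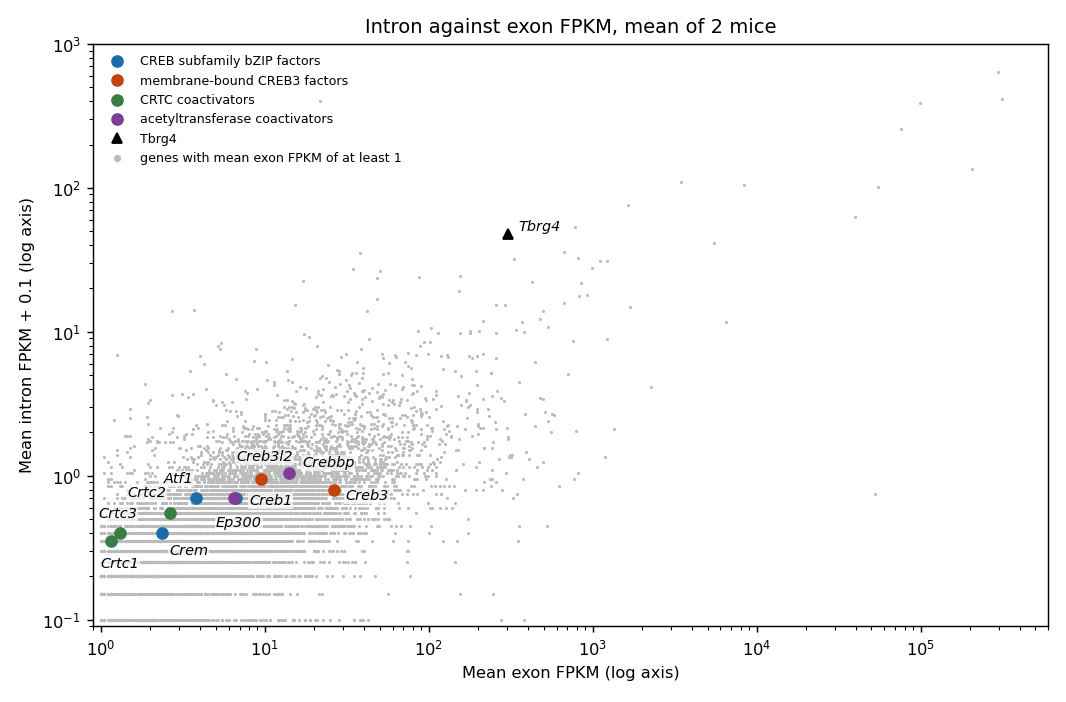
Mean intron FPKM + 0.1 against mean exon FPKM of the 2 mice (both axes log) for expressed genes (gray), the 10 genes (colored by role) and Tbrg4 (triangle). The 10 genes lie between 1.15 and 26.55 exon FPKM with intron levels within a narrow band, and the rows of points at low intron values come from the single decimal of the listed FPKM.

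Genes whose 4 values (exon and intron FPKM in each mouse, log2) lay nearest to those of Creb1 were 3830406C13Rik at a distance of 0.0703, Ep300 at 0.0885 and Rock2 at 0.15. Nearest to Crebbp were Ube4b at 0.0563, Prss35 at 0.135 and Selenoo at 0.199. Such likeness is common at these levels, since 174 genes lay within 0.5 of Creb1 and 88 within 0.5 of Crebbp.

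The other genes of the pathway were taken from 9 lists of 92 genes, of which 90 were in the files. Of these, 62 averaged 1 FPKM or more over exons, a limit that 48.0% of all listed genes reached. Of these 62, 2 differed more than 2-fold between the mice (3.23%, compared with 5.90% of all genes), both higher in replicate 1 as listed. Sik1, a salt-inducible kinase that phosphorylates the CRTC proteins and is itself a CREB target, was listed at 10.8 and 2.7 FPKM over exons and 2.2 and 0.3 over introns. Stk11 (LKB1), the kinase that activates the salt-inducible kinases, was listed at 20.1 and 8.2. After the GC correction only Sik1 remained past 2-fold. The 62 genes had a median log2 ratio of -0.07, compared with -0.08 over all genes.

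Upstream of the CREB factors, transcripts of every step of the cAMP cascade were read in both mice. The counts below stand beside 48.0% of all listed genes with a mean of at least 1 FPKM, a share that several of them are near. Gnas, which encodes the stimulatory G protein subunit, was listed at 40.6 and 42.5 FPKM, and 5 of 11 genes for this subunit and the adenylyl cyclases had a mean of at least 1, led among the cyclases by Adcy9 (9.7 and 9.4) and Adcy6 (6.9 and 4.2). Adcy1 and Adcy8 are listed at 0 in both mice. Of the 9 genes for PKA subunits and inhibitors, 6 reached 1 FPKM, and the catalytic subunit Prkaca (17.1 and 14.0) and the regulatory subunits Prkar2a (17.2 and 15.1) and Prkar1a (11.9 and 14.5) were highest. Of the 10 phosphodiesterases that degrade cAMP, 5 did, led by Pde7a (6.0 and 6.7), Pde8a (4.3 and 4.5) and Pde3b (2.7 and 4.2). Among other kinases that can phosphorylate CREB1, Akt1 was highest at 97.8 and 63.1, followed by Rps6ka1 at 24.3 and 12.5 and Rps6ka3 at 3.5 and 5.5, and 8 of 11 reached 1 FPKM.

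All 10 regulators of the CRTC proteins reached 1 FPKM, compared with 48.0% of all listed genes, although the CRTC genes themselves lay at 0.9 to 2.7. The calcineurin genes Ppp3r1 (20.6 ± 7.07, SD, n = 2) and Ppp3ca (15.3 ± 3.25) were highest, followed by Stk11. The phosphatase subunits Ppp1ca (82.8 and 79.1), Ppp1cb (46.9 and 80.0) and Ppp2ca (51.6 and 70.9), which can dephosphorylate CREB1, exceeded every one of the 10 genes. Ppp1cc is listed at 0.1 and 0.0 over exons but at 1.4 and 0.8 over introns, and 3 near-identical copies of its coding sequence lie elsewhere in the genome, so its exon value is uncertain.

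Of 12 other CREB and ATF factors in the files, 8 reached 1 FPKM, compared with 48.0% of all listed genes. Atf4, the effector of the integrated stress response, averaged 162.0 ± 2.83 FPKM (SD, n = 2), above each of the 10 genes, followed by Atf6 (13.9 and 14.3), a sensor of stress in the endoplasmic reticulum, and Atf7 (7.4 and 10.7). All 10 further acetyltransferases and p160 coactivators reached 1 FPKM, and Kat2b (25.9 and 29.4), which encodes PCAF, was above Crebbp, while Ncoa3 (13.6 and 12.4) and Kat6a (11.7 and 10.5) were near it. Of 14 textbook CREB target genes in the files, Crem among them, 7 reached 1 FPKM, near the share of all listed genes (48.0%). The highest were Pck1 (22.4 and 13.6), Fos (8.6 and 6.3) and Sik1.

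**Figure D4:**
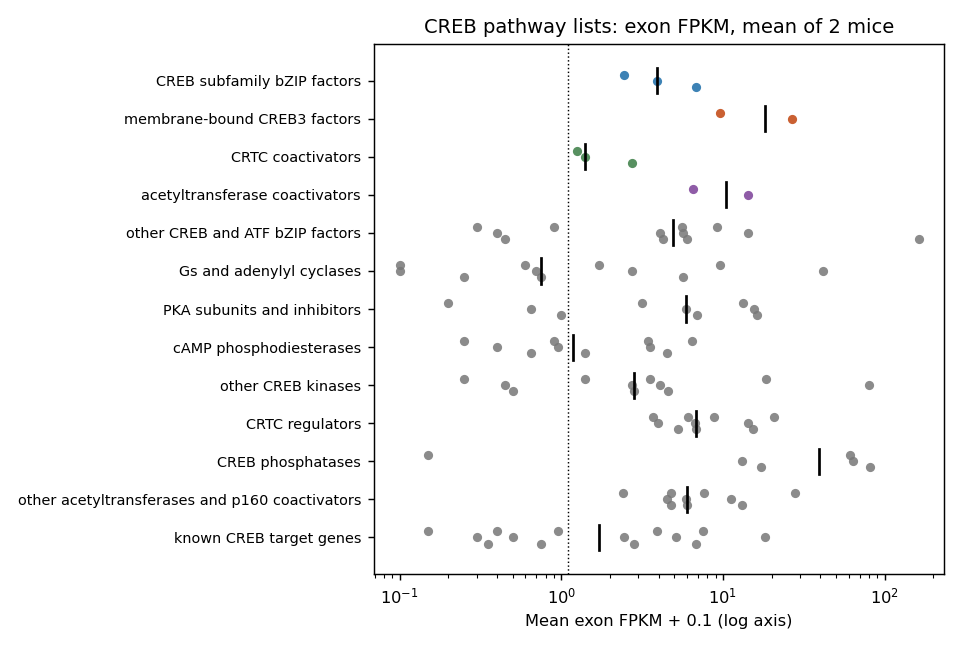
Mean exon FPKM + 0.1 of 2 mice (log axis) for each gene of the CREB pathway lists, with the 10 genes in color, a black bar at the median of each list and a dotted line at a mean of 1 FPKM. The CRTC coactivators have the lowest median of the 4 colored lists (1.3 FPKM), and Atf4 is the highest gene at 162.0 FPKM.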

How the data were processed

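Total RNA from L10 mammary glands of 2 WT/wTbrg4 mice was sequenced by the authors with a stranded kit. The authors mapped the reads to mm10 with STAR, counted them with HTSeq on collapsed UCSC exons and the introns between them, and deposited exon and intron FPKM generated with DESeq2, given with 1 decimal. Tool versions, the strand setting, the treatment of multi-mapping reads and the scaling total are not given in the sources used here.

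The 10 genes, the pathway and marker lists and the rule for named genes were chosen with earlier results of these data known. The rule names the 10 genes, Tbrg4, Wap, the 3 genes of each other list with the highest mean exon FPKM and up to 3 that differ more than 2-fold, and the 3 genes nearest to Creb1 and to Crebbp. Genes that are not under this rule were named after their values or overlaps were seen. They are Adcy1, Adcy8, Ppp1cc, Gba2, Gm22067, Gm51450, Gm15880, Gm6225, Gm33275, Acta2, Jchain, single markers and the genes with a CRE in the closing section. Of the listed genes, 35 without a usable symbol were left out, which left 20515. The difference between the mice is log2 of replicate 2 over replicate 1, with 1 added to each exon FPKM, in genes whose exon FPKM averaged 1 or more. No test was run. The GC correction was a lowess fit over 30% of the genes. It and the estimate of the value of 1 read were tested on simulated data, in which the value of 1 read was found within 1.04% in genes drawn from these introns. Exon and intron lengths, GC content and promoter windows came from RefSeq on GRCm38.p6, and 98.2% of the genes used matched. The value of 1 read was estimated from genes with 60 to 600 bp of introns, for which 69.3% and 88.9% of values in replicate 1 and 2 lay within 0.15 of a whole read. The estimate corresponds to about 12000000 and 11200000 exon reads. Near-identical copies were sought by aligning coding sequences with minimap2 2.31. Other pseudocounts, limits on low values, scalings, the GC correction, GENCODE lengths and leaving out each mouse were tried. Computing was done in Python 3.11.15 (pandas 2.3.3, numpy 2.4.6, statsmodels 0.14.6, scipy 1.17.1), and plots were drawn with matplotlib 3.10.9.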

Additional observations from a re-analysis of the deposited data

How the results depend on the processing

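Of 22 alternatives to the summary values, 14 left the value within the spread between the mice or within 1.5-fold of the count, and of 170 alternatives to values of single genes 124 did. No member passed 2-fold as listed, and among the alternatives only the rescaling to the same summed exon FPKM changed this count. Signs of single log2 ratios also changed. The 581 genes that differed more than 2-fold between replicates became 1092 with a pseudocount of 0.1, 4193 after rescaling to the same summed exon FPKM, 186 after the GC correction and 231 when only genes averaging 10 FPKM or more were kept. After the rescaling 2 of the 10 genes passed 2-fold, and the median log2 ratio of the 10 was -0.848, compared with -0.128 as listed and 0.106 with the GC trend removed. The median log2 intron to exon ratio of the 10 (-2.92) was -1.9 with a pseudocount of 1 and -3.08 to -2.8 with either mouse left out. With GENCODE lengths, an alternative chosen after seeing the data, exon reads were 1.29 to 2.19 times and intron reads 0.793 to 1.0 times those given. No paired analysis was possible because only 1 group has RNA-seq. Low levels such as those of the CRTC genes rest on as few as 26 exon reads, and a single decimal limits every intron value.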

Other observations

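A CRE in the promoter window was found for 449 of 15929 genes in the files with a RefSeq window. Tbrg4 is left out of the shares below, a choice made after seeing the data, because in these mice its value (314.7 and 291.5 FPKM) includes an allele that is read from the Wap promoter and lost the native one. Of the 448 others, 64.5% averaged 1 FPKM or more over exons, compared with 48.8% of the genes with a window and no CRE. Among the expressed genes the median was 6.3 FPKM with a CRE and 5.85 without. At least 100 FPKM was reached by 8 of 289 expressed genes with a CRE (2.77%) and by 153 of 7560 without (2.02%). At least 1000 FPKM was reached by 0 of the 289 and by 15 of the 7560. So few genes were this high that a count of 0 among 289 is not informative. No test was run on these shares, and genes with and without a CRE were not matched on the GC or CpG content of their windows. The CRE itself contains a CpG, so what the CRE adds to these shares cannot be told from them. The highest were the elongation factor gene Eef2 (764.1 and 340.6 FPKM), the fatty acid elongase gene Elovl5 (252.4 and 635.5) and Abcg2 (221.6 and 355.0), which encodes a transporter that secretes riboflavin and xenobiotics into milk. Of the 69 other genes of the CREB pathway lists with a window, 4 held a CRE, namely Creb5, Dusp1, Ppp2ca and Prkar1a.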
